A study of Mus musculus with 11 samples.

Results

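Interferon-response genes and guanylate-binding protein genes were examined in a mouse leukaemia line exposed to Runt domain inhibitors. The 42 members were given as a list of gene symbols, which was chosen with earlier results of these data known. Of them, 41 were measured here among 22180 genes. They comprise guanylate-binding proteins and immunity-related GTPases (9 measured of 10), transcription factors (7), RNA sensors (3), antiviral effectors (16) and genes of ubiquitin, ISG15 and ADP-ribosylation (6). Gbp2 was left out because its probe set is shared with Gbp2b.

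The cells were line 720, a T-cell acute lymphoblastic leukaemia (T-ALL). It arose in a Tcf12+/- mouse with a Tal1 transgene under the Lck promoter, so every group carries both alterations and the results concern 1 line. All groups were treated for 8 h with a compound labelled as a Runt domain inhibitor, the Runt domain being the part of RUNX transcription factors that binds DNA. AI-9-54 was used at 50 µM (4 arrays, replicates 1 to 4), AI-8-45 at 100 µM (4 arrays, replicates 1 to 4) and AI-7-54 at 100 µM (3 arrays, replicates 1, 3 and 4). A vehicle-treated sample was not analysed here, so a difference is between compounds and not a response to treatment, and for AI-9-54 compound and dose cannot be told apart. The labels do not say whether replicates were separate cultures, so the p-values reflect only how far these arrays differ, which may be technical spread.

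Interferons act through receptors that activate JAK kinases. Type I interferon signalling acts on genes with an interferon-stimulated response element (ISRE), which a complex containing STAT2 and IRF9 binds, while interferon-gamma signalling acts on genes with a gamma-activated site (GAS). The genes switched on this way include sensors of viral RNA, enzymes that block viral replication, and the guanylate-binding and immunity-related GTPases that attack membranes around intracellular pathogens. Many of these genes are also transcribed at a basal level in uninfected lymphocytes.

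Promoter sequences show which of the 2 elements stand before members that were called and before one that was not. RefSeq promoters (GRCm38.p6, 250 bases before to 50 after the start) were found for 30 of the 42 listed genes. The ISRE core, searched as GAAA, NN and GAAA in a row on either strand, was in the promoters of 17 of these 30 genes (56.7%), against 3.99% of all 27025 genes of the table. The GAS, TTCNNNGAA, which reads the same on both strands, was in 11 of 30 (36.7%), against 9.55% of all genes. Of members called higher between AI-9-54 and AI-7-54, 7 of the 12 with a promoter entry had an ISRE core and 5 a GAS, and of those not called, 8 of 16 had an ISRE core and 5 a GAS. The motifs overlapped in 1 member promoter, that of Bst2. Motif presence is a description and was not tested against the calls. A few promoters are printed, from 250 bases upstream to the start site, with ISRE cores and GAS in capitals and no overlap between them. Gbp7, Igtp and Irf1 are shown as members called between AI-9-54 and AI-7-54, and Ifit3 as one that was not. These examples do not stand for all members. Herc6, Irf7 and Irf9 were called there and had neither motif, and uncalled Gbp5 had 1 ISRE core and 2 GAS.
Gbp7, chr3:142530086-142530335 (+): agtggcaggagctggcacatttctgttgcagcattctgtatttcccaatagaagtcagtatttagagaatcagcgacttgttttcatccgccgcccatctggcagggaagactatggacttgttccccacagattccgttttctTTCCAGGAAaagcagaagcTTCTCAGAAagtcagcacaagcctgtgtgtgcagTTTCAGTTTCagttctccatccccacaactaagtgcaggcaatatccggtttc
Igtp, chr11:58199306-58199555 (+): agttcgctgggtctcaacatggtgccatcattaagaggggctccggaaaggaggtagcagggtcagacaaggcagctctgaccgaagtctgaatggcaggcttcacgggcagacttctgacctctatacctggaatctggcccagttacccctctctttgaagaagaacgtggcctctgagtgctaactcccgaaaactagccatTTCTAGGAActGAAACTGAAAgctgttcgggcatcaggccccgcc
Irf1, chr11:53769764-53770013 (+): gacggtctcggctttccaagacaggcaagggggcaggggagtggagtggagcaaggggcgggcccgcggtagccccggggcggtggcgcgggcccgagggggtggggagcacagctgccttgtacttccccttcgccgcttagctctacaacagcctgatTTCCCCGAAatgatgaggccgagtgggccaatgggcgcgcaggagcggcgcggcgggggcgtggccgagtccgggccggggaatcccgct
Ifit3, chr19:34583279-34583528 (+): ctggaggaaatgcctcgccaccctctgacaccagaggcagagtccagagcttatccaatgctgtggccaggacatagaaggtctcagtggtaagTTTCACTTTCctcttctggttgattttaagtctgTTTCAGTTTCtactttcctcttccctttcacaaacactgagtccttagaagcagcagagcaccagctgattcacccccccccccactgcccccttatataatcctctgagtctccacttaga
The Gbp7 stretch holds 1 ISRE core and 2 GAS, that of Igtp 1 ISRE core beside 1 GAS, that of Irf1 1 GAS and no ISRE core, and that of Ifit3 2 ISRE cores and no GAS. For Irf1 the table has another start site, and neither motif lies in that promoter.

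The median log2 value of an array was 6.61 to 6.68. The 9 measured T-cell identity genes were all above the array median, with a median log2 level of 11.1 and Cd3e, a chain of the T-cell receptor complex, at 13.0. Medians of markers of other cell types were 6.29 for B lineage, 6.36 for myeloid, 6.15 for dendritic, 5.54 for NK, 7.35 for erythroid and 7.48 for stromal cells. Above the array median were 1 of 7 B lineage, 3 of 10 myeloid, 3 of 8 dendritic, 2 of 6 NK, 2 of 3 erythroid and 6 of 7 stromal markers. These include Vim (12.7), Ccr9 (10.6) and Nkg7 (9.56). Of these 41 other markers, 2 were called in a comparison, Bst2, which is also a member, and the NK marker Nkg7. Nkg7 was higher than after AI-7-54 by 0.31 after AI-9-54 and by 0.28 after AI-8-45 (limma adjusted p 0.00122 and 0.00562). Of all genes, 14.2% were called between AI-9-54 and AI-7-54, 5.66% between AI-8-45 and AI-7-54 and 1.31% between AI-9-54 and AI-8-45. Among the T-cell genes Thy1, Cd5, Bcl11b and Gata3 had lower levels after AI-9-54 relative to AI-7-54 (-0.50, -0.60, -0.40 and -0.33). Cd5 was also lower after AI-8-45 relative to AI-7-54 (-0.69), and Thy1 and Bcl11b after AI-9-54 relative to AI-8-45 (-0.36 and -0.41). Their part in the member results was not tested. In this bulk RNA, fewer cells of a type and less RNA per cell cannot be told apart. A low value here means a dim probe set, which does not show that the transcript was missing.

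After AI-9-54, 19 of the 41 members differed from AI-7-54 at an adjusted p under 0.05 in limma, 16 higher and 3 lower. Guanylate-binding protein genes and interferon regulatory factors made up 8 of the 16 that were higher, and Gbp4 had the largest difference. Among all genes, the same test called 14.2% (6.87% higher and 7.29% lower), while among members it called 46.3%. The list was chosen with earlier results of these data known, so member shares are a description and not a test of the list. The member median of the log2 difference was 0.18 and that of all genes -0.00. Between AI-8-45 and AI-7-54, 7 members were called (17.1%, 5 higher and 2 lower), beside 5.66% of all genes (2.13% higher and 3.53% lower), with a member median of 0.14 against 0.00 for all genes. Both comparisons use the same 3 AI-7-54 arrays. The AI-9-54 and AI-7-54 arrays did not overlap for 21 members, 17 higher and 4 lower, beside 23.2% of all genes (11.3% higher, 12% lower). The AI-8-45 and AI-7-54 arrays did not overlap for 14 members, 11 higher and 3 lower, beside 15.9% of all genes (6.79% higher, 9.07% lower). All 19 and all 7 called members kept their sign within replicates 1 and 2, where AI-7-54 has replicate 1 alone, and within replicates 3 and 4. The calls were made on these same arrays, so the kept signs are not a separate check of them. The member medians within the sets were 0.10 and 0.22 for AI-9-54 and 0.14 and 0.09 for AI-8-45. Without AI-7-54 replicate 3 or 4, the 19 members called became 10 or 11. The 7 became 4 without AI-7-54 replicate 4 and 11 without AI-8-45 replicate 3.

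Mean log2 levels ran from 4.86 (Gbp8) to 9.74 (Gbp7) among the GTPases, from 6.93 (Irf8) to 10.42 (Irf2) among the transcription factors and from 5.47 (Ifih1) to 9.65 (Ddx58) among the RNA sensors. They ran from 4.82 (Mx1) to 8.60 (Rtp4) among the antiviral effectors and from 6.69 (Isg15) to 11.90 (Usp18) in the last group. Levels of different probe sets are not comparable with each other. For 11 members the mean lay below the array median.

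**Figure D1:**
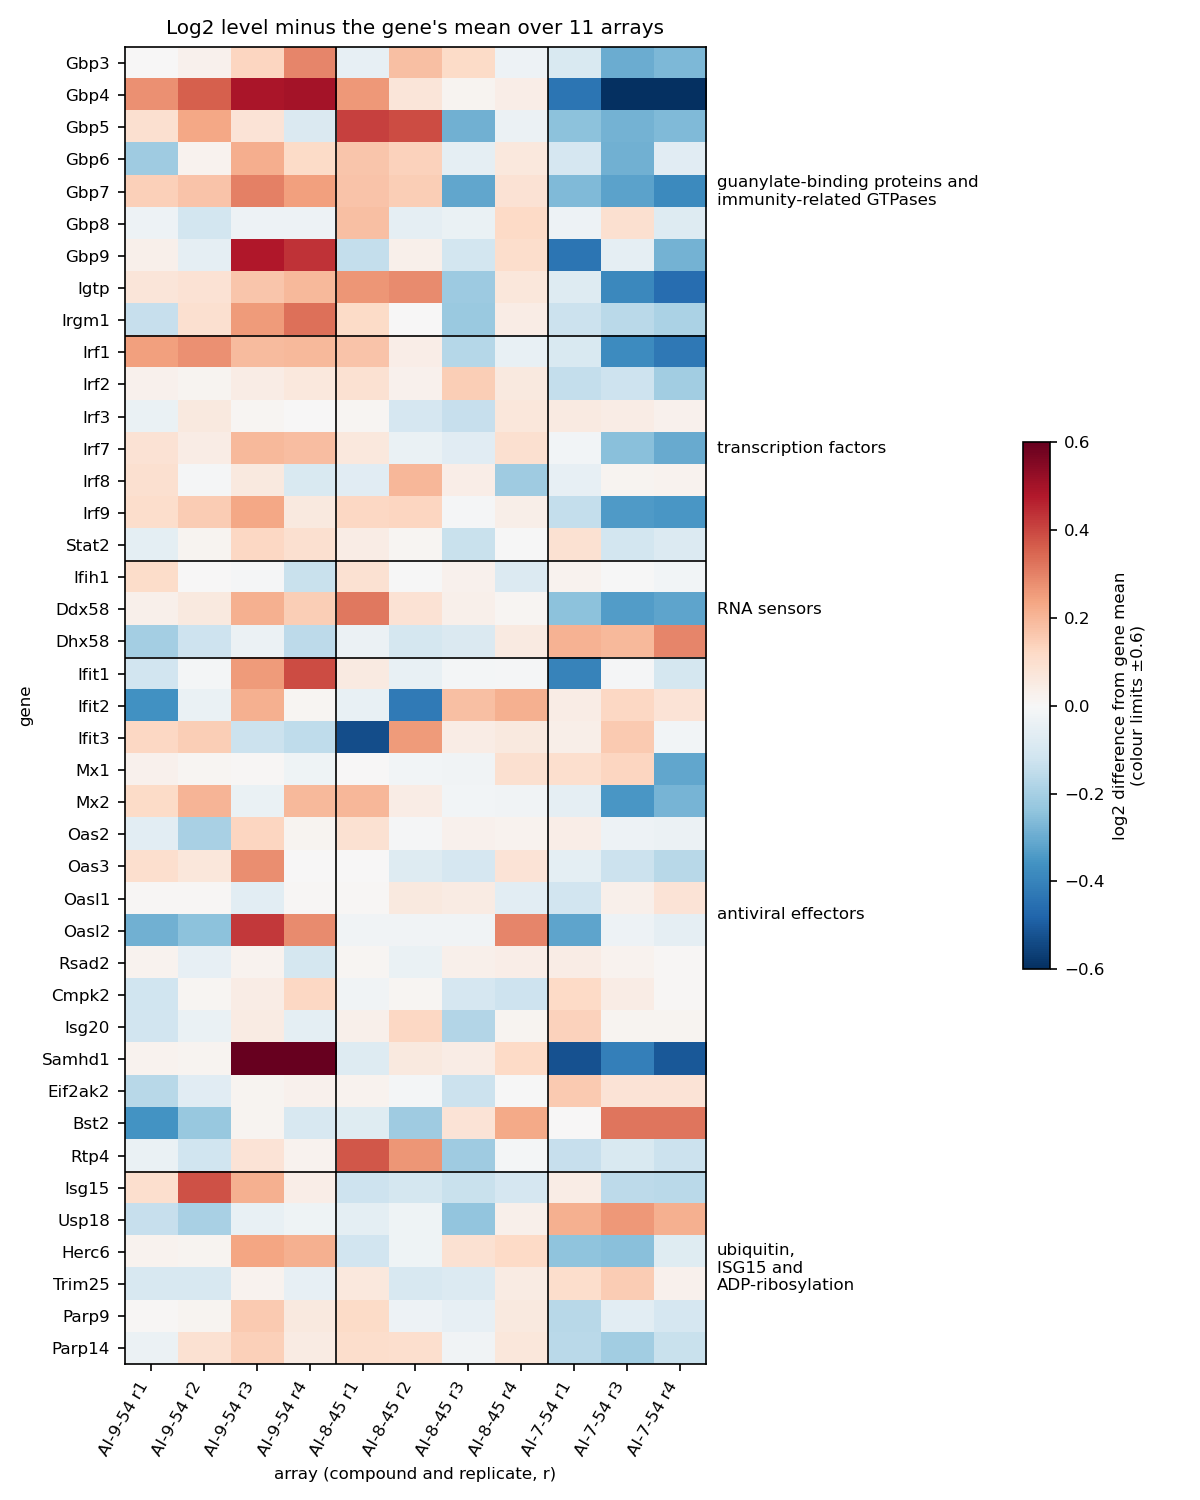
Heatmap of the log2 level of 41 members on each of 11 arrays, minus that gene's mean over all arrays (red above, blue below, colours end at ±0.6). Gbp4 and Samhd1 are darkest, and the AI-7-54 columns are blue for most guanylate-binding protein genes and red for Dhx58 and Usp18.

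**Figure D2:**
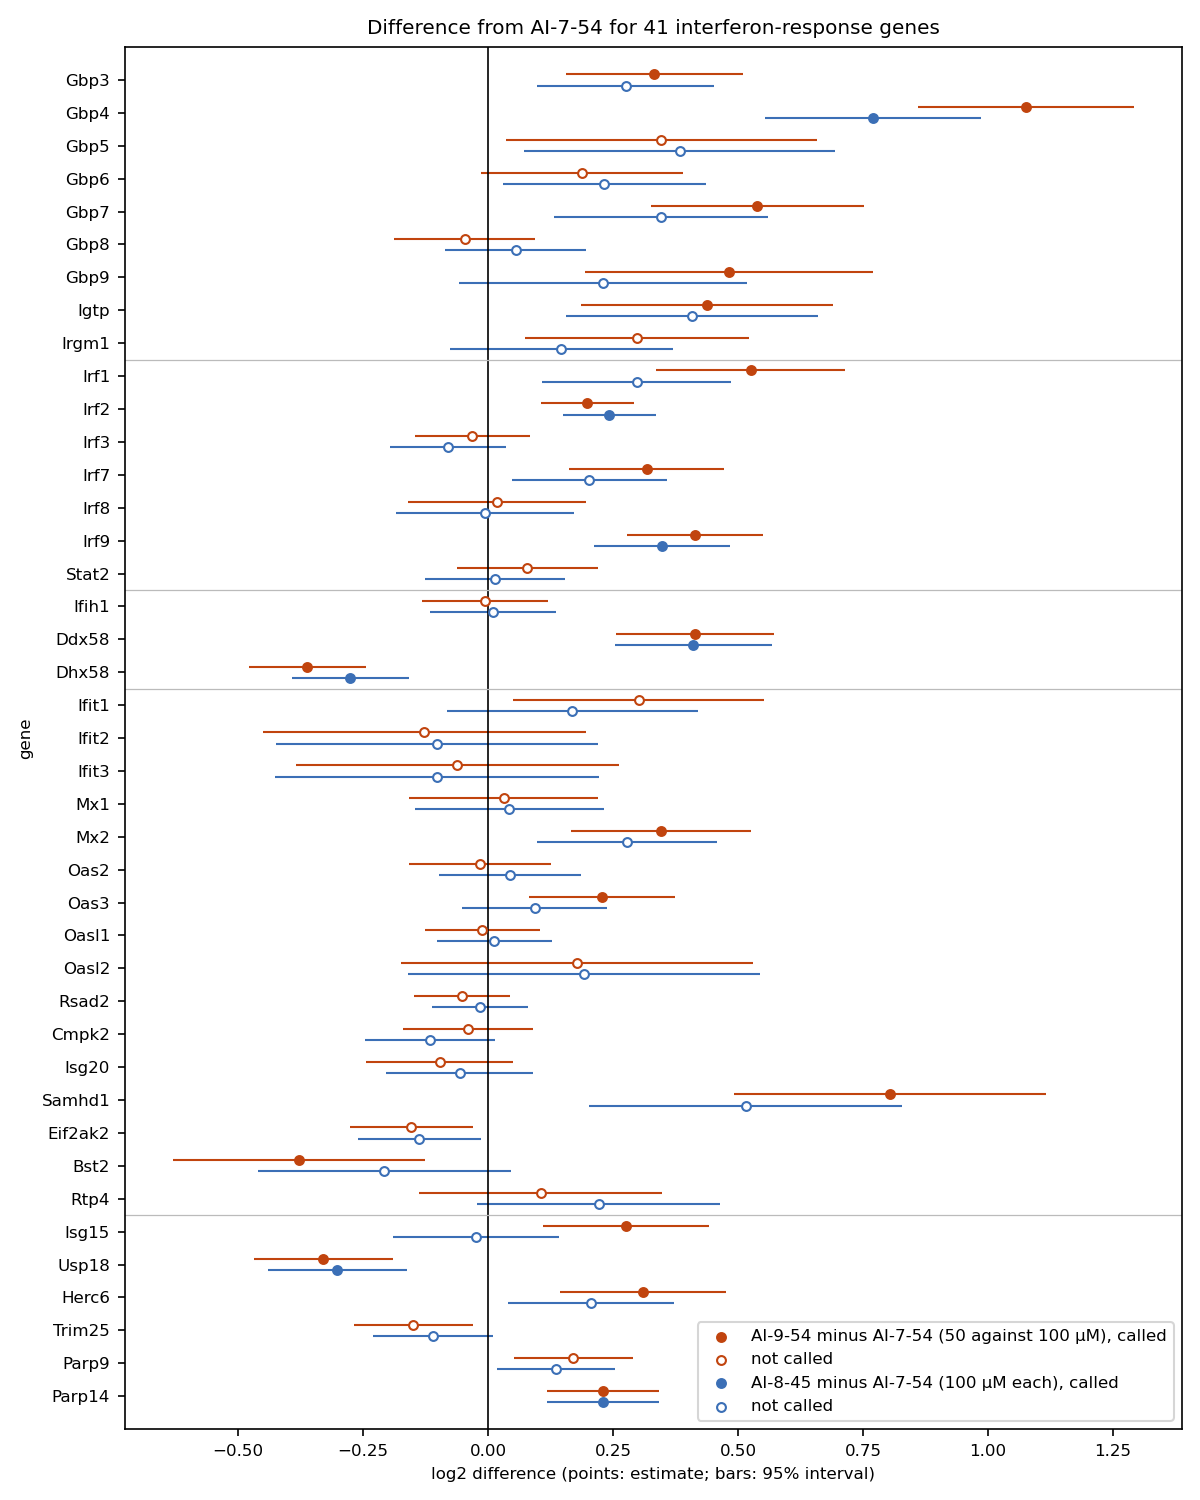
Log2 difference from AI-7-54 for each member, with 95% intervals, after AI-9-54 (orange) and AI-8-45 (blue). Filled points are called at an adjusted p under 0.05, and Gbp4 lies farthest to the right at 1.08 after AI-9-54.

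Of the 9 measured guanylate-binding and immunity-related GTPases, 5 were higher and none lower after AI-9-54 relative to AI-7-54 (55.6% called, beside 14.2% of all genes). Their median difference was 0.35. After AI-8-45, 1 was higher (11.1% called, beside 5.66% of all genes, median 0.27). That count of 1 depends on the model. With array weights, which called 8.23% of all genes, Gbp3, Gbp7 and Igtp passed as well (limma adjusted p 0.0335, 0.00935 and 0.00947). Gbp4, a guanylate-binding protein gene, had log2 levels of 8.55, 8.63, 8.76 and 8.77 on the AI-9-54 arrays, 8.53, 8.34, 8.29 and 8.31 on the AI-8-45 arrays, and 7.83, 7.60 and 7.37 on the AI-7-54 arrays. All 3 AI-7-54 arrays lay below every other array, and all 4 AI-9-54 arrays above every AI-8-45 array. Gbp4 was higher than after AI-7-54 by 1.08 after AI-9-54 (2.11-fold, 95% interval 0.86 to 1.29 on the log2 scale, limma adjusted p 2.13e-05) and by 0.77 after AI-8-45 (limma adjusted p 0.000777). Within replicates 1 and 2 these differences were 0.76 and 0.61, and within replicates 3 and 4 they were 1.28 and 0.82. Gbp7, whose product helps assemble the NADPH oxidase on phagosomes in mice, had 9.89, 9.92, 10.05 and 9.99 on the AI-9-54 arrays, 9.91, 9.89, 9.43 and 9.83 on the AI-8-45 arrays, and 9.48, 9.42 and 9.36 on the AI-7-54 arrays. The AI-9-54 and AI-7-54 arrays did not overlap, while AI-8-45 replicate 3 lay among the AI-7-54 arrays. Its difference from AI-7-54 was 0.54 after AI-9-54 (limma adjusted p 0.00285, 0.42 and 0.63 within the replicate pairs) and 0.35 after AI-8-45 (adjusted p 0.0637).

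Igtp, an immunity-related GTPase that keeps other such GTPases in check on membranes, had 9.53, 9.54, 9.62 and 9.65 on the AI-9-54 arrays, 9.72, 9.74, 9.24 and 9.52 on the AI-8-45 arrays, and 9.38, 9.07 and 8.997 on the AI-7-54 arrays. The AI-9-54 arrays lay above all AI-7-54 arrays, and AI-8-45 replicate 3 below AI-7-54 replicate 1. Igtp was higher after AI-9-54 by 0.44 (limma adjusted p 0.0238, 0.16 and 0.60 within the replicate pairs), and 0.41 apart after AI-8-45 (adjusted p 0.0643). Gbp9 had 7.88, 7.80, 8.33 and 8.29 on the AI-9-54 arrays, 7.71, 7.88, 7.74 and 7.95 on the AI-8-45 arrays, and 7.41, 7.80 and 7.57 on the AI-7-54 arrays. Only replicates 3 and 4 of AI-9-54 lay clear of the other arrays. Its AI-9-54 difference was 0.48 (limma adjusted p 0.029, 0.43 and 0.63 within the pairs). For Gbp3 the arrays read 7.30, 7.32, 7.42 and 7.59 after AI-9-54, 7.25, 7.47, 7.41 and 7.27 after AI-8-45, and 7.20, 7.00 and 7.02 after AI-7-54. All AI-9-54 and AI-8-45 arrays lay above the AI-7-54 arrays, with differences of 0.33 (limma adjusted p 0.0161, 0.10 and 0.50 within the pairs) and 0.27 (adjusted p 0.0763). Leaving out an array ended the AI-9-54 call of Gbp3 (AI-7-54 replicate 3 or 4, adjusted p up to 0.081), Igtp (AI-7-54 replicate 3 or 4 or AI-9-54 replicate 3 or 4, up to 0.118) and Gbp9 (AI-7-54 replicate 1 or 4 or AI-9-54 replicate 3 or 4, up to 0.123), and that of Gbp9 also ended under quantile normalization and in a fit of only the groups compared. Irgm1, a regulator of autophagy, was 0.30 above AI-7-54 after AI-9-54 (adjusted p 0.08). Gbp5, known for promoting inflammasome assembly, Gbp6 and Gbp8 lay below the array median on all 11 arrays and were not called. Gbp5, Gbp7 and Gbp3 neighbour each other in the genome, as do Gbp8, Gbp9, Gbp4 and Gbp6. They are paralogues, and whether a probe set also binds transcripts of a related copy was not tested.

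**Figure D3:**
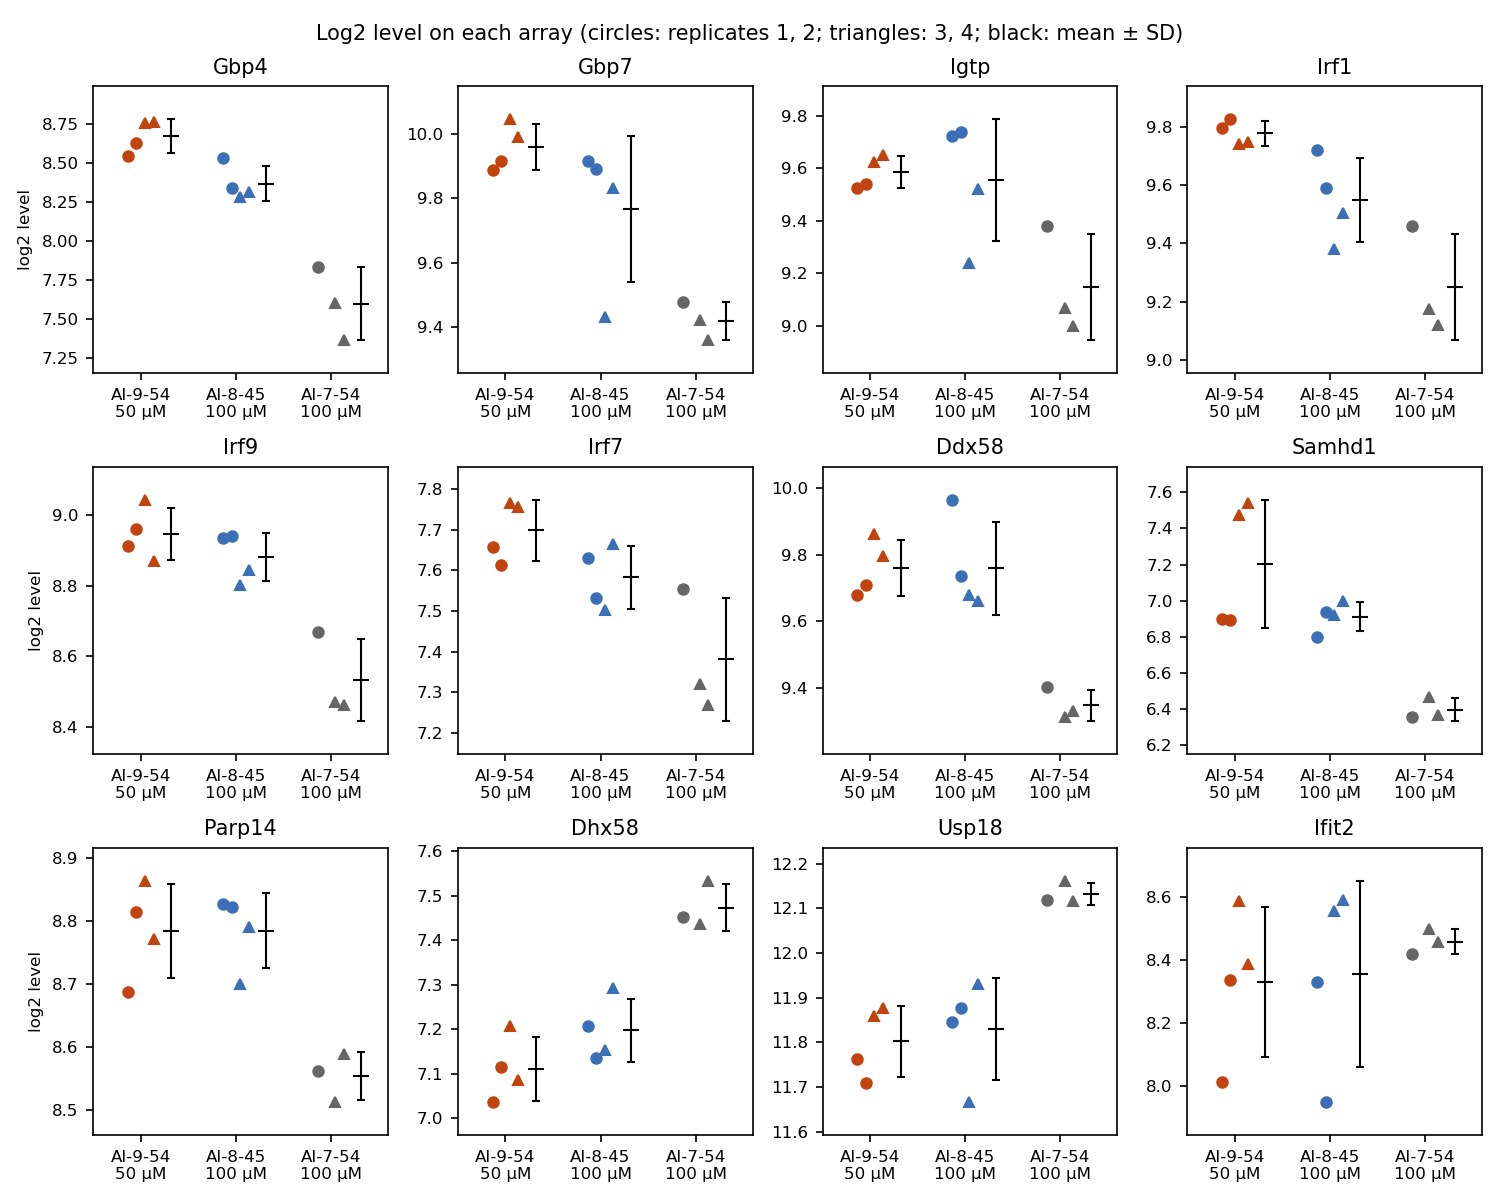
Log2 level of 12 members on each array by compound (circles replicates 1 and 2, triangles replicates 3 and 4, black mean ± SD). Gbp4 and Irf9 lie lowest on the AI-7-54 arrays, Dhx58 and Usp18 highest there, and the groups of Ifit2 overlap.

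Among the 7 transcription factor genes, 4 were higher after AI-9-54 relative to AI-7-54 (Irf1, Irf2, Irf7 and Irf9) and 2 after AI-8-45 (Irf2 and Irf9). These are 57.1% and 28.6% called, beside 14.2% and 5.66% of all genes. Irf1, which activates MHC class I and guanylate-binding protein genes, had 9.80, 9.83, 9.74 and 9.75 on the AI-9-54 arrays, 9.72, 9.59, 9.38 and 9.51 on the AI-8-45 arrays, and 9.46, 9.17 and 9.12 on the AI-7-54 arrays. The AI-9-54 arrays did not overlap either other group, and the AI-8-45 and AI-7-54 arrays overlapped. Its difference from AI-7-54 was 0.53 after AI-9-54 (limma adjusted p 0.00153, 0.35 and 0.60 within the replicate pairs) and 0.30 after AI-8-45 (adjusted p 0.0724, and 0.0138 with a term that separates replicates 1 and 2 from 3 and 4). Irf9, which binds DNA in a complex with STAT2, had 8.91, 8.96, 9.04 and 8.87 on the AI-9-54 arrays, 8.93, 8.94, 8.80 and 8.85 on the AI-8-45 arrays, and 8.67, 8.47 and 8.46 on the AI-7-54 arrays. Every AI-7-54 array lay below every array of the other compounds. Irf9 was higher by 0.41 after AI-9-54 (limma adjusted p 0.000829) and by 0.35 after AI-8-45 (limma adjusted p 0.00682), with pairs at 0.27 and 0.49 and at 0.27 and 0.36.

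Irf2, which competes with IRF1 at shared sites, had 10.45, 10.44, 10.47 and 10.48 on the AI-9-54 arrays, 10.51, 10.45, 10.57 and 10.48 on the AI-8-45 arrays, and 10.28, 10.29 and 10.21 on the AI-7-54 arrays. The AI-7-54 arrays lay below all others, in a narrow range. The differences were 0.20 after AI-9-54 (limma adjusted p 0.00776) and 0.24 after AI-8-45 (limma adjusted p 0.006). Irf7, an inducer of type I interferon genes, had 7.66, 7.61, 7.77 and 7.76 on the AI-9-54 arrays, 7.63, 7.53, 7.50 and 7.67 on the AI-8-45 arrays, and 7.55, 7.32 and 7.27 on the AI-7-54 arrays. AI-9-54 did not overlap AI-7-54, and AI-8-45 did. Its AI-9-54 difference was 0.32 (limma adjusted p 0.00969, 0.08 and 0.47 within the pairs), and the call ended without AI-7-54 replicate 3 or 4 (adjusted p up to 0.0574). Irf3, Irf8 and Stat2 differed from AI-7-54 by -0.08 to 0.08 on the log2 scale and were not called. Irf8 has a second probe set, and it was not called either.

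Of the 3 RNA sensor genes, 1 was higher and 1 lower than on the AI-7-54 arrays in both comparisons. That is 66.7% called, beside 14.2% of all genes after AI-9-54 and 5.66% after AI-8-45. Ddx58, which encodes the sensor RIG-I, had 9.68, 9.71, 9.86 and 9.80 on the AI-9-54 arrays, 9.96, 9.73, 9.68 and 9.66 on the AI-8-45 arrays, and 9.40, 9.31 and 9.33 on the AI-7-54 arrays. The AI-7-54 arrays lay below all others, and the difference was 0.41 after AI-9-54 (limma adjusted p 0.00223) and 0.41 after AI-8-45 (limma adjusted p 0.00613). Dhx58, which encodes LGP2, a regulator of RIG-I and MDA5 signalling, had 7.04, 7.11, 7.21 and 7.09 on the AI-9-54 arrays, 7.21, 7.14, 7.15 and 7.29 on the AI-8-45 arrays, and 7.45, 7.44 and 7.53 on the AI-7-54 arrays. Here the AI-7-54 arrays lay above all others. Dhx58 fell by 0.36 after AI-9-54 relative to AI-7-54 (limma adjusted p 0.000725) and by 0.28 after AI-8-45 (limma adjusted p 0.0107), the second call ending without AI-7-54 replicate 4 (adjusted p 0.0608). Ifih1, the MDA5 gene, lay below the array median on all 11 arrays and was not called.

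Of the 16 antiviral effectors, 3 were higher and 1 lower after AI-9-54 relative to AI-7-54 (25% called, beside 14.2% of all genes). After AI-8-45, 0 were called, beside 5.66% of all genes. There 3 (18.8%) had an unadjusted p under 0.05 in limma, a share near the 16.7% of all genes. That count of 0 depends on the model, since Samhd1 and Mx2 passed with the replicate number as a block (limma adjusted p 0.0228 and 0.0414). Samhd1, a hydrolase of deoxynucleotide triphosphates, had 6.90, 6.89, 7.48 and 7.54 on the AI-9-54 arrays, 6.80, 6.93, 6.92 and 7.00 on the AI-8-45 arrays, and 6.35, 6.47 and 6.37 on the AI-7-54 arrays. The AI-7-54 arrays lay below the array median and below all others, and AI-9-54 replicates 3 and 4 lay above replicates 1 and 2. The difference was 0.80 after AI-9-54 (limma adjusted p 0.00249, 0.54 and 1.09 within the pairs) and 0.51 after AI-8-45 (adjusted p 0.0592). The AI-8-45 difference of Samhd1 did pass with only the groups compared (limma adjusted p 0.00234), with array weights (0.0301) and with the term for replicates 1 and 2 or 3 and 4 (0.00596). Mx2, an Mx family GTPase gene, lay below the array median throughout, at 5.70, 5.78, 5.54 and 5.78 on the AI-9-54 arrays, 5.78, 5.63, 5.56 and 5.56 on the AI-8-45 arrays, and 5.53, 5.23 and 5.30 on the AI-7-54 arrays. All AI-9-54 arrays read above the AI-7-54 arrays, and the AI-9-54 difference of 0.35 (limma adjusted p 0.014) lost its call without AI-7-54 replicate 3 or 4 (up to 0.0784). Oas3, an oligoadenylate synthetase that activates RNase L, averaged 7.89 ± 0.12 after AI-9-54 and 7.66 ± 0.05 after AI-7-54 (SD, limma adjusted p 0.039, and 0.0533 with the replicate number as a block). Bst2, the virion tether tetherin, averaged 7.03 ± 0.16 after AI-9-54 and 7.40 ± 0.18 after AI-7-54 (SD), and fell by 0.38 (limma adjusted p 0.0484) with overlapping groups. The call of Oas3 ended on leaving out any AI-7-54 array, AI-8-45 replicate 1 or AI-9-54 replicate 1, 2 or 3 (adjusted p up to 0.147), and under both other scalings. That of Bst2 ended on leaving out AI-7-54 replicate 3 or 4, AI-8-45 replicate 1 or 3 or AI-9-54 replicate 1, 2 or 4 (adjusted p up to 0.188).

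The other 12 antiviral effectors were not called. The RNA-binding Ifit2 had 8.01, 8.34, 8.59 and 8.39 after AI-9-54, 8.33, 7.95, 8.56 and 8.59 after AI-8-45, and 8.42, 8.50 and 8.46 after AI-7-54, so the groups overlapped, and its AI-9-54 difference of -0.13 had a 95% interval of -0.45 to 0.20. Ifit3 likewise differed by -0.06 after AI-9-54 and -0.10 after AI-8-45, and Ifit1, below the median on 10 arrays, by 0.30 and 0.17. With the replicate number as a block, Ifit1 passed between AI-9-54 and AI-7-54 (limma adjusted p 0.118 without the block and 0.0432 with it). Rsad2, the viperin gene, and its neighbour Cmpk2, a mitochondrial nucleotide kinase gene, lay below the array median on all 11 arrays, as did Mx1 and Oas2. The RNA-activated kinase gene Eif2ak2 lay below AI-7-54 on every array of both other compounds, by -0.15 after AI-9-54 (limma adjusted p 0.101) and -0.14 after AI-8-45 (limma adjusted p 0.226). Oasl1, Oasl2, Isg20, an exonuclease gene, and Rtp4 were uncalled as well, and Oasl2 had the widest AI-9-54 spread of this role, 8.52 ± 0.36 (SD, n = 4).

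Of the 6 genes of ubiquitin, ISG15 and ADP-ribosylation, 3 were higher and 1 lower after AI-9-54 relative to AI-7-54 (66.7% called, beside 14.2% of all genes). After AI-8-45, 1 was higher and 1 lower (33.3% called, beside 5.66% of all genes). Usp18, whose product removes ISG15 from proteins and blocks type I interferon receptor signalling, had 11.76, 11.71, 11.86 and 11.88 on the AI-9-54 arrays, 11.85, 11.88, 11.67 and 11.93 on the AI-8-45 arrays, and 12.12, 12.16 and 12.12 on the AI-7-54 arrays. The AI-7-54 arrays lay above all others. Usp18 fell by 0.33 after AI-9-54 (limma adjusted p 0.00404) and by 0.30 after AI-8-45 (limma adjusted p 0.016), the second call ending without AI-7-54 replicate 3 or 4 (up to 0.0799). Parp14, a mono-ADP-ribosyltransferase gene, had 8.69, 8.81, 8.86 and 8.77 on the AI-9-54 arrays, 8.83, 8.82, 8.70 and 8.79 on the AI-8-45 arrays, and 8.56, 8.51 and 8.59 on the AI-7-54 arrays. It lay lowest after AI-7-54, without overlap, and the difference was 0.23 after AI-9-54 (limma adjusted p 0.00959) and 0.23 after AI-8-45 (limma adjusted p 0.0202). The AI-9-54 call ended without AI-7-54 replicate 3 (0.0509) and the AI-8-45 call without any of 5 arrays (AI-7-54 replicates 1, 3 and 4, AI-8-45 replicates 1 and 2, up to 0.105) and with each array centred on its median. Herc6, the main ISG15 ligase gene in mice, had 9.34, 9.34, 9.56 and 9.53 on the AI-9-54 arrays, 9.20, 9.29, 9.41 and 9.44 on the AI-8-45 arrays, and 9.08, 9.07 and 9.25 on the AI-7-54 arrays. AI-9-54 did not overlap AI-7-54, and the difference was 0.31 (limma adjusted p 0.0168, up to 0.0804 without AI-7-54 replicate 1 or 3). Isg15 itself averaged 6.88 ± 0.15 after AI-9-54, 6.57 ± 0.01 after AI-8-45 and 6.60 ± 0.12 after AI-7-54 (SD). Its difference between AI-9-54 and AI-7-54, 0.28, passed the test (limma adjusted p 0.0299), with overlapping groups, and missed it with the replicate number as a block (adjusted p 0.0555). Without AI-7-54 replicate 3 or 4 or AI-9-54 replicate 2 or 3 the call ended as well (up to 0.13), as it did with each array centred on its median. Trim25, a ubiquitin ligase gene acting on RIG-I, and Parp9, an ADP-ribosylation partner of DTX3L, were not called at -0.15 and 0.17.

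Between AI-9-54 and AI-8-45, 0 of 41 members were called by limma, beside 1.31% of all genes (0.708% higher and 0.6% lower), and 4 members (9.76%) had an unadjusted p under 0.05, beside 11.4% of all genes. Those were Gbp4, Irf1, Isg15 and Oas3. The AI-9-54 arrays lay above all AI-8-45 arrays for 3 of the 41 members (7.32%), Gbp4, Irf1 and Isg15, beside 6.67% of all genes without overlap (3.83% higher, 2.84% lower). Both member shares are near those of all genes. The difference was 0.31 for Gbp4 (95% interval 0.11 to 0.51, limma adjusted p 0.163), 0.23 for Irf1 (adjusted p 0.257) and 0.30 for Isg15 (95% interval 0.15 to 0.45, adjusted p 0.068). The median over members was 0.03, with a range of -0.17 to 0.31. Its sign differed by set, at -0.04 within replicates 1 and 2 and 0.12 within replicates 3 and 4. A p over the threshold does not show that the compounds act alike.

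Genes acting upstream of the members came from lists of the pathway. Of the 10 measured interferon ligand genes and the 11 feedback inhibitor genes, 0 were called by limma between AI-9-54 and AI-7-54, with 1 and 4 at an unadjusted p under 0.05, and 0 between AI-8-45 and AI-7-54, with 3 and 1. Among all genes, 24.4% had such a p between AI-9-54 and AI-7-54 and 16.7% between AI-8-45 and AI-7-54. The called shares of all genes there were 14.2% and 5.66%, so 0 calls in lists this short do not show that no gene differed. The ligand list had a median log2 level of 6.29, below the array median. Of 9 receptor and JAK-STAT genes, 2 were called after AI-9-54 (22.2%, beside 14.2% of all genes) and 1 after AI-8-45 (11.1%, beside 5.66%), all higher. After AI-9-54 they were the interferon-gamma receptor gene Ifngr2 (0.28, limma adjusted p 0.0148, 0.0757 without AI-7-54 replicate 4) and the kinase gene Jak2 (0.27, limma adjusted p 0.000649). After AI-8-45 it was Jak2 (0.21, limma adjusted p 0.00825). Nucleic acid sensing genes gave 2 of 14 after AI-9-54 (14.3%, a share near the 14.2% of all genes). They were the kinase gene Tbk1, which phosphorylates IRF3 (0.25, limma adjusted p 0.00154), and the sensor gene Zbp1 (0.37, limma adjusted p 0.0332, up to 0.168 without AI-7-54 replicate 3 or 4 or AI-9-54 replicate 3 or 4). The Zbp1 call also ended with only the groups compared (limma adjusted p 0.0846), and its difference within replicates 1 and 2 was 0.005. After AI-8-45, 0 of 14 were called, and 3 had an unadjusted p under 0.05.

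Of 15 genes of MHC class I presentation, 3 were higher and 1 lower after AI-9-54 (26.7% called, beside 14.2% of all genes). After AI-8-45, 1 was called, Nlrc5 (6.67%, a share near the 5.66% of all genes). Nlrc5, the transactivator of MHC class I genes, averaged 8.06 ± 0.10 after AI-9-54, 7.74 ± 0.19 after AI-8-45 and 7.21 ± 0.18 after AI-7-54 (SD). It was 0.85 above AI-7-54 after AI-9-54 (limma adjusted p 0.00018) and 0.53 above it after AI-8-45 (limma adjusted p 0.0115, up to 0.0627 without AI-7-54 replicate 3 or 4). The peptide transporter gene Tap1 (0.34) and the class I heavy chain gene H2-K1 (0.24) were also higher after AI-9-54 (limma adjusted p 0.00554 and 0.0076), while the immunoproteasome gene Psmb8 fell by 0.26 (limma adjusted p 0.0119, 0.0547 without AI-7-54 replicate 1).

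Of 53 other interferon-stimulated genes, 12 were higher and 4 lower after AI-9-54 (30.2% called, beside 14.2% of all genes). After AI-8-45, 4 were higher and 3 lower (13.2%, beside 5.66% of all genes). The medians were 0.05 in both comparisons. Oas1b, an oligoadenylate synthetase family gene, was 0.61 above AI-7-54 after AI-9-54 and 0.40 above it after AI-8-45 (limma adjusted p 0.000357 and 0.0141, the second up to 0.0692 without AI-7-54 replicate 3 or 4). The GTPase genes Gbp10 (0.60), Iigp1 (0.47) and Irgm2 (0.46) were higher after AI-9-54 (limma adjusted p 0.00646, 0.035 and 0.00302). Iigp1 lay below the array median and lost its call with the replicate number as a block (adjusted p 0.0751) and without AI-7-54 replicate 1, 3 or 4 or AI-9-54 replicate 1 or 4 (up to 0.139). Ly6e, which encodes a membrane protein that limits viral entry, fell by 0.65 after AI-9-54 and by 0.28 after AI-8-45 relative to AI-7-54 (limma adjusted p 1.4e-06 and 0.00201). It was also the single gene of these lists called between AI-9-54 and AI-8-45, with a difference of -0.37 (limma adjusted p 0.000465). Ifi30, a lysosomal thiol reductase gene, fell by 0.72 after AI-9-54 and by 0.53 after AI-8-45 (limma adjusted p 0.000126 and 0.0035). Lgals3bp fell by 0.40 after AI-9-54 (limma adjusted p 0.0143, 0.0656 without AI-7-54 replicate 1) and the RNA-degrading enzyme gene Pnpt1 by 0.28 (limma adjusted p 0.00112). After AI-8-45, Sp100, a nuclear body gene, was higher by 0.31, Trim30a by 0.26 and Parp11 by 0.18, and Pnpt1 fell by 0.18 (limma adjusted p 0.0337, 0.0173, 0.0466 and 0.0373). These 4 calls each ended on leaving out AI-7-54 replicate 3 or 4 (adjusted p up to 0.199). Those of Sp100, Parp11 and Pnpt1 also ended with each array centred on its median. They ended as well without AI-8-45 replicate 1, 3 or 4 for Sp100, any AI-8-45 array for Pnpt1, and any array but AI-8-45 replicate 3 for Parp11. Averaged over its probe sets, Sp100 was higher by 0.22 and not called (limma adjusted p 0.135). Its difference within replicates 1 and 2 was 0.10.

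**Figure D4:**
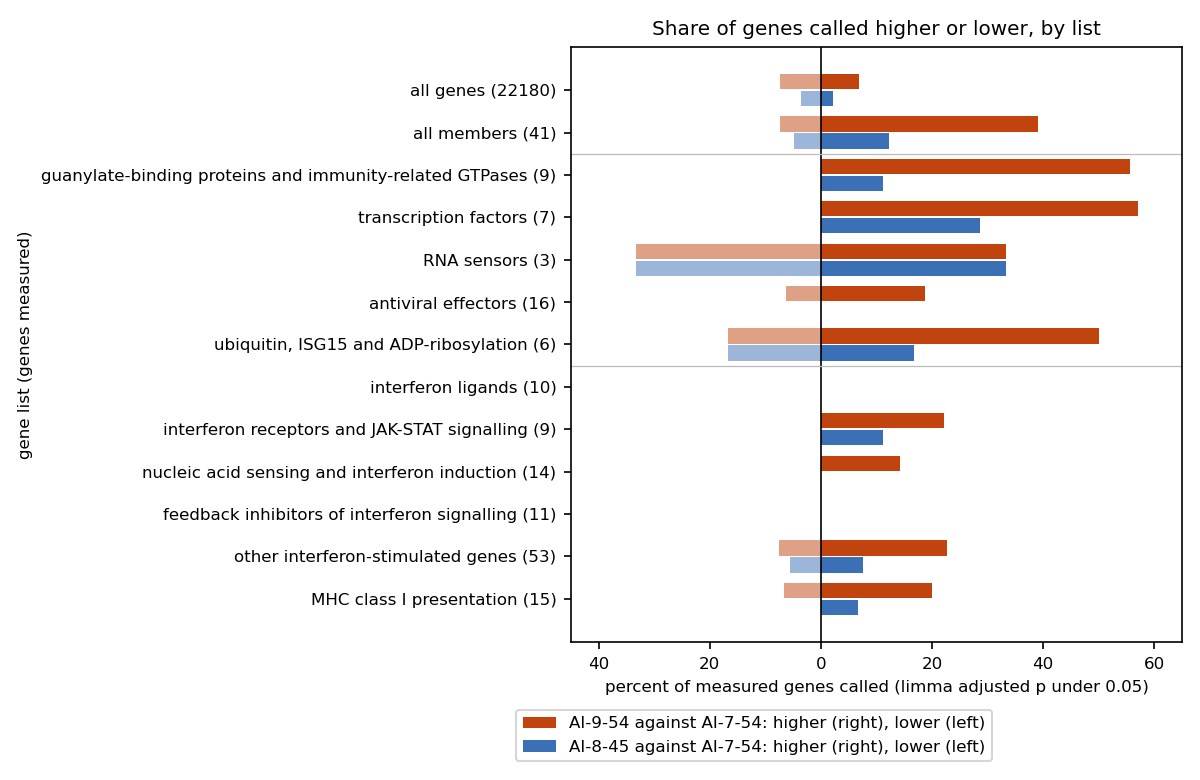
Percent of measured genes called higher (right) or lower (left, paler) than after AI-7-54 at an adjusted p under 0.05, by list, after AI-9-54 (orange) and AI-8-45 (blue). The list of interferon ligands and that of feedback inhibitors have no bar, and all genes stand at 6.87% higher and 7.29% lower after AI-9-54.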

How the data were processed

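Gene expression was measured on 11 single-colour arrays, 1 per sample. Per the submitters' processing notes, RMA and Partek 6.6 were used, and the genome build is not given in the sources used here. The deposited values, 3.23 to 13.8, were taken to be log2, the scale RMA gives. Of 41345 probe sets, 23521 had 1 gene symbol, and for each of 22180 genes the probe set of highest mean was used, with no filter on dim genes. The 3 comparisons came from 1 limma 3.58.1 model in R 4.3.3 (lmFit and eBayes, two-sided), with Benjamini-Hochberg adjustment across the 22180 genes, and a call is an adjusted p under 0.05. Array values are given for the 16 called members with the smallest adjusted p, and up to 4 called genes per pathway list, comparison and direction are named. Members and lists were chosen with earlier results of these data known, as was the separation of replicates 1 and 2 from 3 and 4. Like replicate numbers of AI-9-54 and AI-7-54 deviated together weakly (correlations 0.14, 0.16 and 0.12 for numbers 1, 3 and 4). Unlike numbers gave -0.30 to 0.32, so these values do not single out pairing by number. The main fit had no block. The fit with the replicate number as a block is given where it changes a call between these groups. In the other comparisons not every pair reached 0.1, and the block is given with the alternatives. Alternatives were other scalings, filters, probe set rules, an intensity trend, array weights, replicate number or set as a term, single sets, only the groups compared, and leaving out each array. Promoters came from RefSeq (GRCm38.p6), and figures were drawn with matplotlib 3.10.9.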

Additional observations from a re-analysis of the deposited data

Results flagged for a closer look

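In 3 of 82 groups of 4 arrays tested, 1 array stood apart from the other 3 by Dixon's gap criterion at the 95% level, which chance meets in about 1 group in 20. Gbp8 read 4.75 on AI-9-54 replicate 2 and 4.83 on each of the others. Oasl1 read 6.58 on AI-9-54 replicate 3 and 6.65 on each of the others. Oasl2 read 8.77 on AI-8-45 replicate 4 and 8.45 on each of the others. In all 3 groups the other arrays carry 1 value, equal to 5 decimals as deposited. Such equal values on at least a pair of arrays occur for 14 of 41 members and for 14998 of 41345 probe sets (36.3%), and their source was not tested. None of the 3 genes was called in a comparison.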

How the results depend on the processing

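Between AI-9-54 and AI-7-54, the 19 members called were 10 to 20 on leaving out each array and 3 from replicates 1 and 2 alone. All genes called there, 3139, were 2103 to 3290 and 593. Between AI-8-45 and AI-7-54, the 7 members called were 4 to 11 on leaving out each array and 11 of the 28 members tested among genes above the median level. They were 15 with array weights, 12 with the replicate set as a factor, 0 from replicates 1 and 2 and 3 from replicates 3 and 4. The 1255 genes called (5.66%) were 540 to 1229 on leaving out each array and 1688 above the median level (15.2% of the genes tested there). They were 1825 with array weights (8.23%), 1949 with the replicate set (8.79%), 2 from replicates 1 and 2 and 613 from replicates 3 and 4. Between AI-9-54 and AI-8-45, 0 members were called on leaving out any array, 1 (Isg15, limma adjusted p 0.0477) with the replicate number as a block, 2 (Irf1, 0.0381, and Isg15, 0.024) with the replicate set and 1 (Samhd1, 0.0251) from replicates 3 and 4. The 290 genes called were 128 to 257, 436 above the median level, 517 with the replicate block, 816 with the replicate set, 6 from replicates 1 and 2, 143 from replicates 3 and 4 and 141 with only the groups compared. Single sets hold fewer arrays, and the cause of the other changes was not tested. With the replicate block 18 members were called between AI-9-54 and AI-7-54 (17 of the 19, and Ifit1), beside 14.9% of all genes. Between AI-8-45 and AI-7-54, 10 members were called with it, beside 6.35% of all genes. These 10 were 6 of the 7, without Parp14 (limma adjusted p 0.0571), and Irf1, Mx2, Samhd1 and Herc6 (0.0281, 0.0414, 0.0228 and 0.0384). Of the other named genes, Parp11 (0.0682) and Pnpt1 (0.0825) lost that call. Of 2796 values of 39 named genes over 24 alternatives, 177 lost a call, 52 gained one and 0 were counted as reversed. That count does not cover sign changes of uncalled differences. Between AI-9-54 and AI-8-45, for example, the uncalled Igtp difference of 0.03 became -0.20 when only replicates 1 and 2 were used. Member medians kept their sign and stayed between 0.13 and 0.20 for AI-9-54 and between 0.10 and 0.16 for AI-8-45, each minus AI-7-54, on leaving out an array. Few arrays per group limit the precision, and 11 members lay below the array median, where signal over background is unknown.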

Other observations

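Within AI-9-54, replicates 3 and 4 read above replicates 1 and 2 for 30 of 41 members, with a median log2 difference of 0.10. This was not computed over all genes, so the count has no background beside it. Oasl2 and Samhd1 had the largest differences (0.62 and 0.61). Oasl2 stood at 8.90 and 8.76 in replicates 3 and 4, against 8.19 and 8.23 in replicates 1 and 2. Samhd1 stood at 7.48 and 7.54, against 6.90 and 6.89. Within AI-8-45 the same difference had a median of -0.04 over members and ranged from -0.56 for Gbp5 to 0.43 for Ifit2. Within AI-7-54, where replicates 3 and 4 are set against replicate 1 alone, the median was -0.03.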
